A study of Homo sapiens with 3 samples.

Results

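ANGPTL1, ANGPTL2, ANGPTL4 and ANGPTL6 are 4 of the genes that encode angiopoietin-like proteins, and their transcripts were followed in HepG2 cells exposed to etoposide. All probes whose gene name in the array design equals 1 of these symbols were taken, control spots excluded. This gave 5 probes of the 34127 on the array, and 4 genes of 27274. The genes were chosen by their signals and ratios in these same 3 samples, so their values are a description and carry no test. HepG2 is an established human hepatocellular carcinoma line, and etoposide is a topoisomerase II inhibitor that leaves double-strand breaks in DNA. Cells were left untreated per the labels (0 μM, the control cells, which the study's own table calls DMSO), or received a low dose of etoposide (10 μM) or a high dose of etoposide (100 μM), for 30 h in every case. Total RNA of each condition was labeled with Cy3 and read on 1 one-color Agilent array, all 3 arrays lying on 1 slide. No condition has a replicate, so differences between cultures were not measured, and no p-value is given. These are bulk samples of a single tumor line, in which fewer cells of a kind and less RNA per cell cannot be told apart.

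Angiopoietin-like proteins are secreted glycoproteins with an amino-terminal coiled-coil region and a carboxy-terminal fibrinogen-like domain, built like the angiopoietins but not known to act through the Tie2 receptor. ANGPTL4 inhibits lipoprotein lipase and so raises plasma triglyceride, and its gene is a target of the peroxisome proliferator-activated receptors (PPARs), of hypoxia and of glucocorticoids. ANGPTL2 acts in inflammation and tissue remodeling, and integrins and the leukocyte receptor LILRB2 have been described as receptors for it. ANGPTL6, also called angiopoietin-related growth factor, is made mainly in the liver and bears on energy metabolism, while ANGPTL1 is known as an inhibitor of angiogenesis.

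The promoters of ANGPTL2 and ANGPTL4 are shown because these genes had their highest signal at different doses. Each is the 250 bases that precede the RefSeq start site on GRCh38.p14, written 5′ to 3′ on the strand of the gene, and ends at the base before the start. Capitals mark a TATA box (TATAAA) or a GC box (GGGCGG), searched on both strands, so that a GC box on the other strand reads CCGCCC.
ANGPTL2, chr9:127122636-127122885, minus strand: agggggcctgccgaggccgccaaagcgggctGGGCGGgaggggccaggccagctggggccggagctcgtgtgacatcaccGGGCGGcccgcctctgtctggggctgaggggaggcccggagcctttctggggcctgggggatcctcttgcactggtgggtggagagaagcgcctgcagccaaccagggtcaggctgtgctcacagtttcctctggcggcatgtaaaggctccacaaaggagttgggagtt
ANGPTL4, chr19:8363905-8364154, plus strand: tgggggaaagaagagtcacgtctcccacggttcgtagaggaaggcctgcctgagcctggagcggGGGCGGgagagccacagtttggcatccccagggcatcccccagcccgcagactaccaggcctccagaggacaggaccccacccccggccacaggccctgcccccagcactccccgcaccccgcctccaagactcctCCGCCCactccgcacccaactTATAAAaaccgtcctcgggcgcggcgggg
Both stretches were rich in GC, at 68.4% for ANGPTL2 and 68.8% for ANGPTL4, compared with a median of 58% over 27305 promoters of the same length. The ANGPTL4 promoter held a TATA box that begins 29 bases before the start, and a GC box on each strand. The ANGPTL2 promoter held 2 GC boxes and no TATA box. TATA boxes were found in 11.1% of all promoters and GC boxes in 42.3%. A hypoxia response core (ACGTG or GCGTG, in 43.1% of promoters) was present in the ANGPTL4 stretch and not in that of ANGPTL2. For ANGPTL1 the corresponding stretch had a GC content of 44% and a TATA box match on the other strand only, 240 bases before the start. RefSeq lists 3 start sites for ANGPTL6, and the hypoxia core was matched before 2 of them. A cAMP response core (TGACG, in 21.7% of promoters) or a p53 half-site (in 5.53%) was matched in none of the stretches of the 4 genes. These matches describe letters in a window and say nothing about binding.

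The signal of a probe is the processed intensity of the scanner software, in arbitrary units and before any scaling between arrays. A probe is well above background where the software calls it so, and it then has a measured level. Throughout means on all 3 arrays. Folds were taken after each array was scaled to its 75th percentile. That percentile was a signal of 514 in control cells, 536 at 10 μM and 432 at 100 μM. Well above background were 20109, 19836 and 20150 probes in the same order, and no spot was saturated. Folds of the 4 genes over control, and some others, are given with a range at 2 spot SD, where the spot SD comes from the 50 repeated probes closest in signal on the same array. This range covers scatter between spots of 1 array and not scatter between cultures. Levels of different genes were not ranked against each other, because probes differ in how brightly they report a transcript. Sums over marker lists are weighted by that brightness.

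ANGPTL2 was the gene whose own signal peaked at 10 μM. Its probe (NM_012098, chr9:128890756-128890815 on hg18) gave a signal of 54.0 in control cells, 205 at 10 μM and 79.9 at 100 μM. It was well above background in all 3 conditions, and the low dose stood above both other conditions. The scaled signal was 3.63-fold higher at 10 μM than in control cells (2.94 to 4.48 at 2 spot SD), and 99.5% of 15449 genes measured on both arrays had a lower ratio. At the high dose it was 1.76-fold higher than in control cells (1.39 to 2.23). The low dose was therefore 2.06-fold above the high dose (1.75 to 2.43). Among 15177 genes well above background throughout, 10.8% shared this order, with control lowest and the low dose highest.

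ANGPTL4 was the gene with the highest ratio at 100 μM. Its probe (NM_139314, chr19:8345197-8345256 on hg18) gave signals of 274, 381 and 581 in control cells, at 10 μM and at 100 μM. All 3 values were well above background and followed the dose. The scaled signal was 1.33-fold above control cells at 10 μM (1.19 to 1.49) and 2.52-fold above them at 100 μM (2.25 to 2.83). Of 15465 genes measured on both arrays, 97.9% had a lower ratio at 100 μM. The high dose exceeded the low dose 1.89-fold (log2 ratio of low over high -0.92, spot SD 0.07), the opposite direction to ANGPTL2.

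ANGPTL6 followed the order of ANGPTL4 with smaller ratios. Its probe (NM_031917, chr19:10064256-10064315 on hg18) gave signals of 67.3 in control cells, 81.2 at 10 μM and 99.2 at 100 μM, all well above background. At the low dose the ratio to control cells was 1.16-fold, and its range at 2 spot SD (0.944 to 1.42) included no change. At the high dose it was 1.75-fold (1.43 to 2.14), which is close to the 1.76-fold of ANGPTL2 at that dose. The high dose exceeded the low dose 1.52-fold (log2 ratio of low over high -0.60, spot SD 0.13). The rising order with dose that ANGPTL4 and ANGPTL6 had was found in 24.6% of the 15177 genes.

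ANGPTL1 was dim, and its 2 probes did not both report it. The probe at chr1:177086882-177086941 (NM_004673, hg18) gave 26.9 in control cells, 11.5 at 10 μM and 52.9 at 100 μM, and was not well above background at 10 μM. The high dose was 2.34-fold above control cells (1.58 to 3.45), the widest range of any measured ratio of the 4 genes over control. At the low dose there is only a bound. With that signal raised to the lowest one well above background on the array (22.7), ANGPTL1 was at least 1.24-fold lower there than in control cells, and at least 2.90-fold higher at 100 μM than at 10 μM. That last bound is a log2 ratio of low over high of -1.54, which was -0.84 with normexp and -2.52 without a floor. Neither bound allows for spot scatter. The bound against control cells is a log2 ratio of -0.31, and the spot SD of the control signal alone was 0.25. No change therefore lies within 2 spot SD of it. The other probe (chr1:177085309-177085368) gave 3.88, 4.57 and 4.36, was not well above background on any array and so gives no fold. The rise of ANGPTL1 at 100 μM therefore rests on 1 probe.

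**Figure D1:**
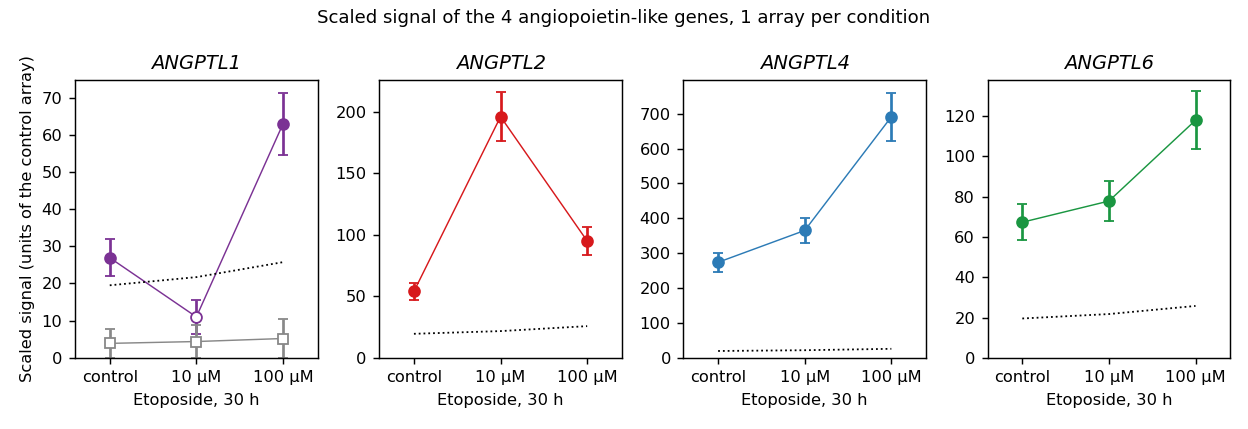
Scaled signal of each gene (vertical axis, linear from 0, in units of the control array) in control cells and at 10 and 100 μM etoposide, 1 array each. Error bars are the software's error of the signal, open symbols are not well above background, gray squares are the other ANGPTL1 probe, and the dotted line is the lowest signal well above background on each array. ANGPTL2 peaks at 10 μM, whereas ANGPTL4 and ANGPTL6 are highest at 100 μM.

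Set against the threshold of 2-fold, the family was not uniform. Shares are of all genes well above background on at least 1 of the 2 arrays compared. At the low dose 1 of the 4 genes (ANGPTL2) was more than 2-fold above control cells, where 3.37% of 16714 genes were. None was more than 2-fold below, where 1.57% were. At the high dose 2 of the 4 (ANGPTL1 and ANGPTL4) were more than 2-fold above control cells, against 6.74% of 16977 genes, and none was more than 2-fold below, against 3.63%. Between the doses, ANGPTL2 was more than 2-fold higher at 10 μM, as were 3.63% of 16791 genes, and ANGPTL1 was more than 2-fold higher at 100 μM, as were 3.94%. The study looked for genes with a rise above 3-fold at 10 μM that also exceeded 100 μM more than 2-fold. ANGPTL2 met both thresholds, with 80 of 16261 genes (0.492%). The study's own selection from these arrays was shorter and includes ANGPTL2. The scaling used here was chosen to match fold changes the study printed, so meeting the thresholds adds no support. In the study's qPCR, ANGPTL2 at the low dose exceeded the high dose by less than 2-fold. The array ratio of ANGPTL2 between the doses, 2.06-fold, lay just inside. Normexp background correction adds an offset of 50 to each signal, which draws ratios of dim probes toward no change. The signal of ANGPTL2 in control cells was 54.0. With this correction ANGPTL2 met neither threshold, with log2 ratios of 1.18 over control cells and 0.58 over 100 μM. Its ratio to control cells was past 3-fold in the other 10 of 11 alternatives, some of which could not change it, such as the series table. Because the genes were chosen with these ratios known, nothing is read from the counts.

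At any size, ANGPTL2, ANGPTL4 and ANGPTL6 were each above control cells at both doses, as were 35.4% of the 15177 genes. The median log2 ratio over those genes was -0.03 at 10 μM, 0.08 at 100 μM and -0.09 for low over high. Both comparisons with control cells share the same control array, so the 2 ratios of a gene are not independent.

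**Figure D2:**
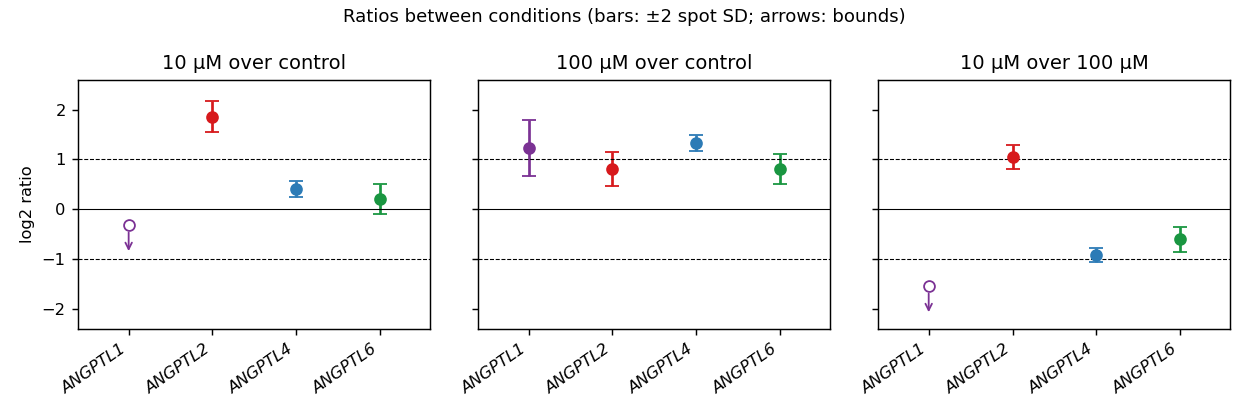
log2 ratio of the 4 genes (vertical axis) for the low dose over control, the high dose over control and the low dose over the high dose. Bars are 2 spot SD to each side, open symbols with arrows are bounds for ANGPTL1, and dashed lines mark 2-fold. ANGPTL2 alone lies above the upper dashed line at 10 μM, and the signs are mixed between the doses.

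Other family genes on the array did not enter the rule. ANGPTL5 gave signals of 5.47, 6.25 and 6.76 in control cells, at 10 μM and at 100 μM, and was not well above background in any of them. ANGPTL7, whose probe was spotted 10 times, averaged 4.60, 5.17 and 5.06 and was not well above background either. No ratio is given for these genes.

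Among the genes whose pair of ratios over control lay nearest to those of ANGPTL2, out of 12045 with a RefSeq mRNA accession, the first was TUBB6, a beta-tubulin, at a distance of 0.06 on the log2 scale. TUBB6 was 3.64-fold above control cells at 10 μM and 1.83-fold at 100 μM. It was followed by IER5, an immediate early response gene (3.86-fold and 1.80-fold), CSTA, the protease inhibitor cystatin A (3.41-fold and 1.81-fold), FOXJ1, a regulator of ciliogenesis (3.63-fold and 1.93-fold), and WBSCR27 (3.41-fold and 1.61-fold). The nearest genes to ANGPTL4 were LYG1, USP35, LGALS9C, SLC22A17 and ACTG2, with high-dose ratios between 2.47-fold and 2.55-fold. For ANGPTL6 they were PLA2G6, KSR1, ZNF75D, GALK1 and STXBP2, between 1.73-fold and 1.78-fold at 100 μM. These distances rest on 2 ratios over 3 arrays with a shared control, and describe likeness of 3 values only. For reference, the p53 targets CDKN1A and MDM2 were 7.94-fold and 7.03-fold above control cells at 10 μM, and 7.07-fold and 3.19-fold at 100 μM. MDM2 is given by the brightest of its probes. Its other probes, also well above background throughout, gave lower ratios. These were 4.88-fold and 3.57-fold at 10 μM, and 2.77-fold and 2.20-fold at 100 μM.

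**Figure D3:**
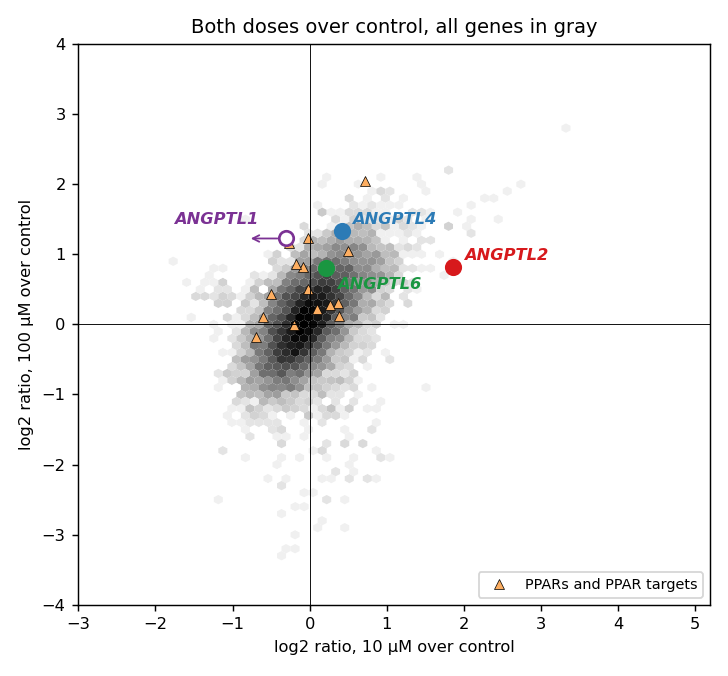
log2 ratio at 100 μM over control (vertical axis) against log2 ratio at 10 μM over control (horizontal axis). Gray hexagons are all 15177 genes well above background throughout, darker on a log scale where more genes fall, triangles are PPARs and PPAR targets, and the arrow shows that ANGPTL1 has only a bound at 10 μM. ANGPTL2 lies to the right of the dense part (1.86), while ANGPTL4 and ANGPTL6 lie within its upper part.

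The angiopoietins, the relatives of the family, and their Tie receptors were mostly dim. Of 5 genes, 2 were well above background throughout and 2 on no array. TEK, which encodes Tie2, gave 4.24, 4.85 and 4.72, and the ligand ANGPT2 was not well above background on any array. The orphan receptor gene TIE1 gave 31.6, 72.6 and 83.7 in control cells, at 10 μM and at 100 μM. It was 2.20-fold above control cells at 10 μM (1.54 to 3.14 at 2 spot SD, a range that includes 2-fold) and 3.14-fold at 100 μM (2.20 to 4.50). ANGPT1 had log2 ratios of -0.29 and -0.02.

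Of 13 genes for receptors and binding partners described for angiopoietin-like proteins, 9 were well above background throughout. Their median log2 ratio was 0.26 at 10 μM and 0.20 at 100 μM. LILRB2 (3.87, 4.57 and 4.37), ITGB3 and TLR4 were not well above background on any array. SDC1, which encodes the heparan sulfate proteoglycan syndecan-1, was the only one more than 2-fold above control cells, at 2.21-fold at 10 μM (2.03 to 2.42) and 1.22-fold at 100 μM. SDC4 was highest at 100 μM, with log2 ratios of 0.82 and 0.65, and SDC2 was lowest at both, with -0.80 and -0.53. The integrin gene ITGB1 had log2 ratios of 0.60 and 0.06, and ITGA5, which encodes the partner subunit of integrin α5β1, had 0.26 and 0.49.

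Lipoprotein lipase itself, the enzyme that ANGPTL4 inhibits, was not detected above background. LPL gave 4.79, 5.32 and 5.27, and the endothelial lipase gene LIPG was likewise not well above background on any array. Of 9 genes for lipases and the factors that handle them, 7 were well above background throughout, and none was more than 2-fold from control cells at either dose. The hepatic lipase gene LIPC gave 1464, 961 and 941, with log2 ratios of -0.67 and -0.39. APOA5, an apolipoprotein that promotes lipolysis, was lowest at 10 μM (-0.72, and -0.34 at 100 μM). The lipase maturation factor genes LMF2 (0.69 at 10 μM) and LMF1 (0.76 at 100 μM) were highest. The list had a median log2 ratio of -0.30 at 10 μM and 0.29 at 100 μM.

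Proteases that cleave angiopoietin-like proteins, or are related to those that do, also stayed within 2-fold of control cells. Of 7 such genes, 4 were well above background throughout. BMP1, a tolloid protease, had log2 ratios of 0.82 and 0.87 and was highest at both doses. FURIN, a proprotein convertase, was lowest at both, with -0.29 and -0.63.

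ANGPTL4 is a PPAR target, and the list of PPARs, their partner RXRA and other targets was read beside it. Of 19 genes, 15 were well above background throughout. At the low dose none was more than 2-fold from control cells, and the median log2 ratio was -0.02. At 100 μM 4 of the 15 were more than 2-fold above control cells, against 6.74% of all genes well above background at that dose or in control cells. The median was 0.43 and 13 of the 15 lay above 0, where 56.8% of the 15177 genes did and the median of those was 0.08. These high-dose values depend on the scaling, which shifts all ratios at a dose alike. The median log2 ratio of the 15177 genes at 100 μM became -0.17 without scaling and -0.21 with median scaling. Counts of this list under those scalings are not given here. CPT1A, the carnitine palmitoyltransferase that commits fatty acids to mitochondrial oxidation, gave 26.1, 44.9 and 90.3 and was 4.11-fold above control cells at 100 μM (3.64 to 4.64). Its probe was spotted 10 times, so this range is for a mean of 10 spots. It is narrower than a range at 2 spot SD for a single spot. CPT1A was highest of the list at 10 μM too, with a log2 ratio of 0.72. SLC25A20, the carnitine-acylcarnitine carrier, was 2.35-fold above, CREB3L3, a liver transcription factor, 2.23-fold, and ACADVL, a very long-chain acyl-CoA dehydrogenase, 2.07-fold. Among these, CPT1A and ACADVL followed the order of ANGPTL4 across the doses, whereas CREB3L3 and SLC25A20 were at or below control cells at 10 μM (log2 -0.27 and -0.02). PPARA itself gave 125, 123 and 184 by its brighter probe, with log2 ratios of -0.08 and 0.81. The other PPARA probe, also well above background throughout, gave 34.1, 38.4 and 33.1. Its log2 ratios were 0.11 and 0.20, and its range at 100 μM (0.756 to 1.76) included no change. RXRA was lowest at both doses, at -0.69 and -0.19. PDK4, FGF21 and VNN1, which are also PPAR targets, were not well above background on any array.

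The hypoxia targets did not share a direction. Of 13 genes, 11 were well above background throughout, and the median log2 ratio was -0.12 at 10 μM and -0.10 at 100 μM. ADM, the gene of adrenomedullin, was highest at 10 μM (0.65) and P4HA1, a collagen prolyl hydroxylase, was lowest (-0.86). At the high dose PFKFB4, a regulator of glycolysis, was 2.30-fold above control cells, while PDK1, a kinase that inhibits pyruvate dehydrogenase, was 2.68-fold below them. Glucocorticoid targets were also mixed. All 9 genes were well above background throughout, with medians of -0.05 and 0.03. TSC22D3, a glucocorticoid-induced leucine zipper gene, was 2.35-fold below control cells at 10 μM and 3.86-fold below at 100 μM, and DUSP1, a phosphatase gene, was highest with log2 ratios of 0.86 and 0.92.

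Of 13 other genes whose proteins carry a fibrinogen-like domain, 6 were well above background throughout. None was more than 2-fold from control cells at 10 μM. At the high dose the fibrinogen gamma chain gene FGG was highest, with a log2 ratio of 0.61. MFAP4, an extracellular matrix glycoprotein gene, had log2 ratios of -0.99 and -1.23 and was lowest at both doses. FCN3, which encodes a ficolin, was at least 2.05-fold higher at 10 μM than at 100 μM, where it was not well above background. That bound does not allow for spot scatter. TNXB, the tenascin-X gene, was highest at 10 μM among those well above background throughout (0.29).

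**Figure D4:**
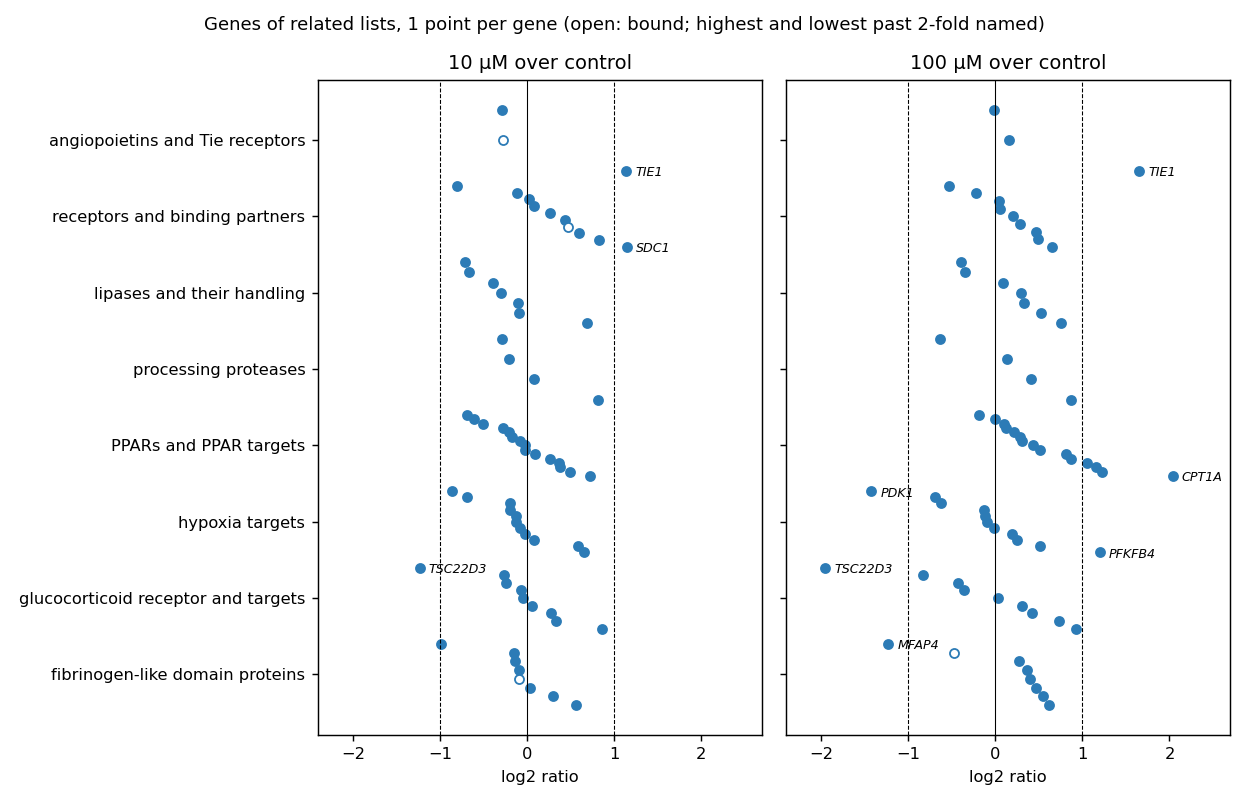
log2 ratio over control (horizontal axis) for the genes of 8 related lists at 10 μM and at 100 μM, 1 point per gene, with open points for bounds and dashed lines at 2-fold. Names are given for the highest and the lowest gene of a list where it is measured and past 2-fold. The PPAR list lies around 0 at 10 μM and mostly above 0 at 100 μM.

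The neighborhoods of the 4 genes were read from RefSeq. ANGPTL2 lies inside RALGPS1, and ANGPTL1 inside RALGPS2, each on the strand opposite to its host, and both hosts encode Ral exchange factors. RALGPS1 gave 32.2 at 10 μM and 34.2 at 100 μM, and its 9.94 in control cells was too dim to be called. Before spot scatter is allowed for, it was at least 1.58-fold and at least 2.08-fold above control cells. The spot SD of its log2 signal was 0.24 at 10 μM and 0.21 at 100 μM. The other RALGPS1 probe gave 9.72, 8.94 and 22.5, was well above background at 100 μM only, and gives no fold at 10 μM. Unlike ANGPTL2, the RALGPS1 signal was not higher at 10 μM than at 100 μM. RALGPS2 had log2 ratios of -0.15 and 0.47. Beside ANGPTL4, KANK3, which encodes an ankyrin repeat protein, gave 31.4, 224 and 121 and was 6.84-fold above control cells at 10 μM (4.86 to 9.62) and 4.60-fold at 100 μM (3.25 to 6.50). RAB11B, on the other side of ANGPTL4, had log2 ratios of 0.29 and 0.52. ANGPTL4 and KANK3 thus had their higher ratio at different doses. ANGPTL6 overlaps SHFL, an antiviral gene on the opposite strand that the array lists as C19orf66, and lies near PPAN, P2RY11 and EIF3G. C19orf66 gave 1153, 1444 and 1567, with log2 ratios of 0.26 and 0.69, the same order as ANGPTL6. P2RY11, a purinergic receptor gene, gave 458, 213 and 488, and was 2.25-fold below control cells at 10 μM and 1.26-fold above them at 100 μM. PPAN and EIF3G had log2 ratios between -0.18 and 0.03 at both doses.

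Markers were read to check the labeled cell type. All 10 hepatocyte markers were well above background throughout, with medians of -0.14 at 10 μM and 0.36 at 100 μM. HNF4A, a hepatocyte transcription factor gene, was dim at 50.7, 30.4 and 53.7. It was lowest at 10 μM (-0.80) and 2.19-fold higher at 100 μM than at 10 μM. At 2 spot SD its fold of low over high dose ranged from 0.305 to 0.680, which includes a 2-fold difference. APOA2 was highest at 10 μM (0.09). At 100 μM FGG was highest (0.61) and ALB lowest (-0.52). The summed scaled signal of the list was 582313 in control cells, 575574 at 10 μM and 755214 at 100 μM. Of 7 fibroblast markers, 6 were not well above background on any array, among them COL1A1, COL1A2 and COL3A1, and the list's sum was 129, 116 and 82.2. PDGFRB, the exception, gave 95.6, 67.0 and 22.5, the last not well above background. It was at least 3.58-fold lower at 100 μM than in control cells, before spot scatter is allowed for. Of 4 adipocyte markers, ADIPOQ, LEP and PLIN1 were not well above background on any array. CIDEC, a lipid droplet gene, had log2 ratios of 0.38 and 1.06, and the list's sum went from 3105 in control cells to 4023 at 10 μM and 6469 at 100 μM. Of 5 endothelial markers, 3 were well above background throughout and KDR and TEK on no array, with sums of 562, 416 and 502. PECAM1 was lowest at both doses, with log2 ratios of -0.73 and -0.48. Of 5 macrophage markers, 3 were well above background throughout. CD14 had log2 ratios of 1.12 and 2.08, CD68 had 0.40 and 1.49, and the pan-leukocyte gene PTPRC had -1.03 and 0.41 by 1 of its 5 probes, the other 4 not being well above background on any array, while ITGAM was not well above background on any array. The sum of that list was 972, 1518 and 3091, which is the order of ANGPTL4. CD14 alone gave 521, 1135 and 2196 of it, and CIDEC gave 3087, 4006 and 6441 of the adipocyte sum. The part of these markers in the ratios of the family was not tested.

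The ratios of the 4 genes were recomputed under each other way of processing. The sign of each was the same in every alternative that gave a value. ANGPTL2 stayed more than 2-fold above control cells at 10 μM in 11 of 11 alternatives, and ANGPTL4 at 100 μM in 11 of 11. The low-over-high ratio of ANGPTL2 was past 2-fold in 9 of 11, and ANGPTL1 at 100 μM in 6 of 10. Not all of these alternatives could differ. The series table holds the same values. No floor and the stricter filter leave the ratio of a probe well above background throughout as it was. Their part of these counts says nothing about stability. Without scaling, which moved the median log2 ratio of all genes at 100 μM from 0.08 to -0.17, ANGPTL2 had a log2 ratio of 0.57 at that dose and ANGPTL4 of 1.09.

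**Figure D5:**
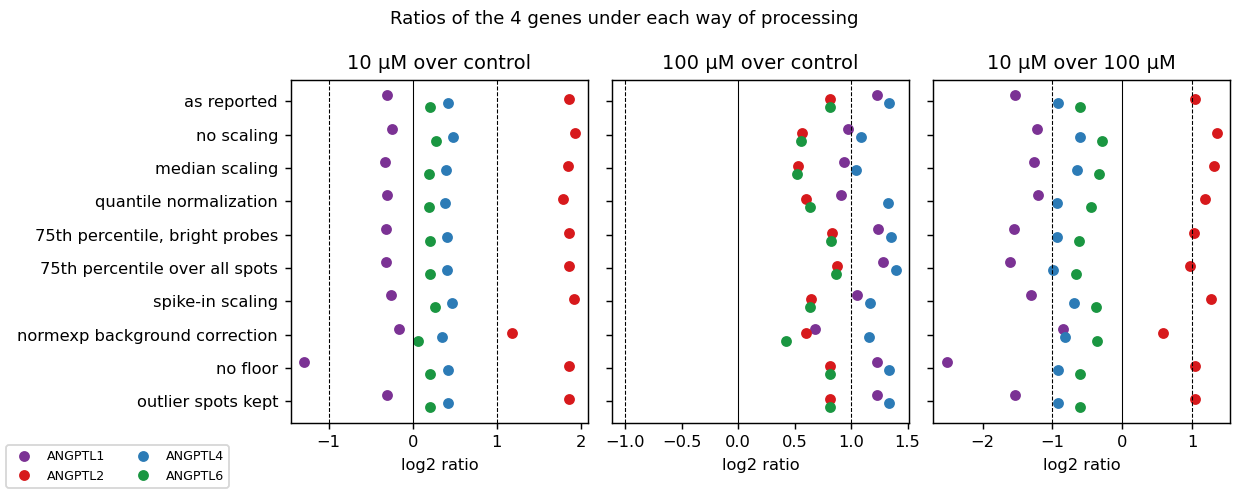
log2 ratio (horizontal axis) of the 4 genes in the 3 comparisons, as reported and under 9 other ways of processing. Dashed lines mark 2-fold, and ANGPTL1 values for 10 μM are bounds except where no floor was used. Background correction by normexp gives the lowest values of ANGPTL2 at 10 μM over control (1.18) and over 100 μM (0.58).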

How the data were processed

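HepG2 RNA was measured on 3 one-color arrays, 1 per condition, grouped by the labels. The authors deposited, per array, the intensity of every spot as given by Agilent Feature Extraction (version 10.7.3.1), with the background subtracted and no scaling between arrays. The deposited series table held equal values for all 44495 spots of each array. Probe positions are those of the array design, on hg18, and promoters came from RefSeq on GRCh38.p14.

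Outlier spots were dropped, the log2 intensity was averaged per probe, and the 75th percentile of the array, each probe counted once, was subtracted. An earlier analysis chose that count because it matched fold changes the study printed, so it is not independent of them. A gene is its brightest probe. A dim signal was raised to the lowest one well above background on its array (19.5 in control cells, 22.7 at 10 μM, 21.6 at 100 μM), and the fold is then a bound. No bound allows for spot scatter. No fold is given where both sides are dim. The spread between spots came from 50 of the 999 probes spotted 10 times. With 1 array per condition no test was made, and this number of arrays limits the precision.

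The 4 genes and all lists were chosen with earlier results of these data known. Named genes are all probes of the 4 genes, the highest and lowest of each list, list genes past 2-fold, neighbors, the 5 nearest genes per gene, CDKN1A and MDM2. Some genes that this rule selects are not reported here. A few others (such as TEK, LPL, LILRB2, LIPC, PPARA, ITGB1, C19orf66 and undetected genes) were named after their values were seen.

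Alternatives were quantile normalization, scaling by the median, by spike-ins, by the percentile over other probe sets or not at all, normexp background correction (limma 3.58.1, R 4.3.3, offset 50), no floor, a stricter filter, outlier spots kept, the mean of a gene's probes, the series table, and thresholds of 1.5-fold and 3-fold. The steps were tested on simulated data. Python 3.11.15, numpy 2.4.6 and pandas 2.3.3 were used.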

Additional observations from a re-analysis of the deposited data

How the results depend on the processing

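No paired analysis was possible because there was 1 array per condition, and for the same reason neither a slide block nor leaving out an array was run. Of 129 ratios of the 4 genes under alternatives, 94 moved by less than their spot SD, 35 by more, and 0 changed sign. The 94 include alternatives that could not change a ratio, such as the series table. As log2 ratios, ANGPTL2 at 100 μM over control was 0.57 without scaling, 0.53 with median scaling, 0.60 with quantile normalization, 0.64 with spike-in scaling and 0.60 with normexp, and its ratio of the low over the high dose was 1.36, 1.31, 1.18, 1.27 and 0.58 in the same order. ANGPTL2 at 10 μM over control was 1.18 with normexp. ANGPTL4 at 100 μM was 1.09 without scaling, 1.05 with median scaling, 1.16 with spike-in scaling and 1.16 with normexp. ANGPTL1 at 100 μM was 0.94 with median scaling, 0.91 with quantile normalization and 0.68 with normexp. ANGPTL1 for the low over the high dose, a bound of -1.54 as reported, was -0.84 with normexp and, measured, -2.52 without a floor. The number of the 4 genes more than 2-fold up at 100 μM, 2 as reported, was 1 without scaling, with median scaling, with quantile normalization, with normexp and with dim probes removed, 4 at 1.5-fold and 0 at 3-fold. The number higher at the low than at 100 μM, 1 as reported, was 0 with the percentile over all spots, with normexp and at 3-fold. The number lower, 1 as reported, was 0 with normexp, with dim probes removed and at 3-fold, and 3 at 1.5-fold. The number lower at 10 μM than in control cells, 0 as reported, was 1 without a floor, where ANGPTL1 had a log2 ratio of -1.29. Scaling by a percentile, the median or spike-ins moves every log2 ratio of a comparison by the same amount. Normexp was run with an offset of 50 added to each signal, which draws ratios of dim probes toward no change. ANGPTL2 had a signal of 54.0 in control cells. What each step adds to these shifts was not tested separately. Signals near background, such as those of ANGPTL1, have the widest spot scatter. Over the related lists, 58 of 288 medians and 81 of 672 counts under alternatives moved past a set margin, changed thresholds included for the counts.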

Other observations

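A gene that the array design lists as LOC55908, which RefSeq names ANGPTL8, was looked at after its values were seen. Its probe (NM_018687) gave 98.1 in control cells, 79.0 at 10 μM and 103 at 100 μM, well above background in all 3 conditions. Its log2 ratio was -0.37 at 10 μM, 0.32 at 100 μM and -0.69 for the low over the high dose, so none of its ratios was past 2-fold. Like ANGPTL4 and ANGPTL6, it was higher at 100 μM than at 10 μM, but at 10 μM it was below control cells.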
